A study of Mus musculus with 10 samples.

Results

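Zfp genes of the mouse with a low RNA level in embryonic cortex were compared between RNA precipitated with 4E-T, RNA precipitated with control IgG and total RNA. Their symbol is Zfp followed by a number and at most 1 letter, and their mean RMA log2 value over the input 2, 3 and 4 arrays was under 6.5. This rule took 204 of the 362 measured Zfp genes (56.4%), out of 22180 genes in all. The members were thus selected on their measured input level. RMA (robust multi-array average) gives a background-corrected, quantile-normalized log2 intensity, so that a value is a relative level on its array and a step of 1 is a factor of 2.

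RNA came from the embryonic cortex of CD1 mice at embryonic days 12 to 13 and was read on 10 Affymetrix Mouse Gene 2.0 ST arrays. The 4ET-IP group held 3 arrays of RNA brought down by a 4E-T antibody (numbers 1, 2 and 3). The IgG-IP group held 3 arrays of RNA precipitated with control IgG (numbers 2, 3 and 4), and the input group held 4 arrays of total RNA (numbers 1 to 4). Strain, tissue and age are shared by all groups, the labels name no mutation or treatment, and they do not say how many embryos a sample pools. Per the series' design there were 3 biological replicates, whereas the labels list 4 input arrays. The IgG precipitate measures RNA that comes down without an antibody against 4E-T, and neither precipitate gives the amount of RNA recovered.

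C2H2 zinc finger proteins bind DNA through rows of small domains, each folded around a zinc ion. Many proteins with Zfp symbols also carry a KRAB domain, which recruits the corepressor Trim28 and through it the histone methyltransferase Setdb1, and they are best known for silencing transposable elements. Their genes often lie in tandem arrays that grew by duplication. 4E-T, the product of Eif4enif1, carries eIF4E, which binds the mRNA cap, and holds mRNAs translationally silent in P-bodies. A symbol does not show whether a member carries a KRAB domain, and protein sequences were not analysed here.

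The arrays fell on 2 scales. Over all probe sets the median was 3.52 on 4ET-IP 1 and 3.54 on input 1, and between 4.33 and 4.54 on the other 8 arrays, with no IgG-IP array on the lower scale. Differences between groups therefore come from a limma fit with terms for group and for scale, and a gene was called at an adjusted p under 0.05 over all genes. With group as the only term, the median difference of all genes between 4ET-IP and IgG-IP was -0.19, against 0.03 with both terms. Markers of the labelled tissue were present, with list medians on the input arrays between 7.89 and 8.0 for cortex precursors and between 8.48 and 9.32 for cortical neurons. Endothelial, meningeal and microglial markers had medians between 3.29 and 5.29 there, and none of these genes had an input mean under 4. Of 6 erythroid markers 2 were measured, Hbb-y and Hba-x, with input means of 10.8 and 8.89.

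The members covered a wide range of input levels, although the value of a probe set also depends on its probes. Their means ran from 1.91 (Zfp982) to 6.49 (Zfp974), with a median of 5.43 and quartiles of 4.56 and 5.96. The members next under the threshold after Zfp974 were Zfp14 and Zfp58, at 6.47 each. The Zfp genes just above it were Zfp866, Zfp773 and Zfp606, at 6.51 each. The annotation lists 200 members as protein coding, Zfp389 and Zfp572 as transcribed pseudogenes and Zfp783 as a long noncoding RNA, and Zfp640 had no match. No member was left out as dim. A total of 17 members stayed under 4 on every array, and 0 of these were called in the limma fit.

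Within each array, the members stood further above other genes under the same input threshold on the 4ET-IP arrays than on any other array. These were the 15410 measured genes without such a symbol and with an input mean under 6.5. They are called other genes of the same input level below, but share only the threshold. Their median input mean was 4.03, against 5.43 for the members. The median of the members exceeded theirs by 2.10, 1.90 and 1.90 on 4ET-IP 1, 2 and 3. The excess was 1.43, 1.18 and 1.37 on IgG-IP 2, 3 and 4, and 1.66, 1.38, 1.30 and 1.44 on input 1 to 4. The 4ET-IP arrays did not overlap the others, whereas the IgG-IP and input arrays overlapped. No test is given for these medians, because the members were chosen with results known.

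**Figure D1:**
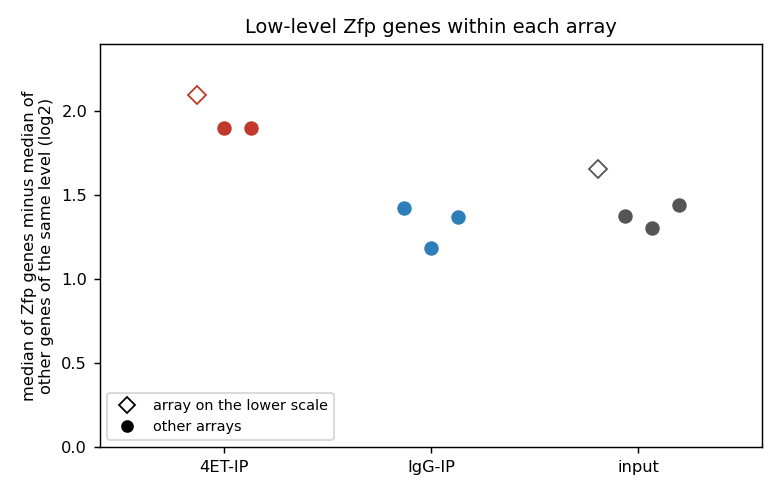
Median RMA log2 value of the 204 low-level Zfp genes minus that of 15410 other genes with an input mean under 6.5, for each array by group; each point is 1 array and open diamonds mark the arrays on the lower scale. The 4ET-IP arrays lie between 1.90 and 2.10, above the IgG-IP arrays (1.18 to 1.43) and the input arrays (1.30 to 1.66).

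The comparison of 4ET-IP with IgG-IP set the relative level of each RNA beside 4E-T against its level in the control precipitate. Of the 204 members, 61 were called higher (29.9%) and 5 lower (2.45%), against 7.57% higher and 2.92% lower among all genes. Among the other genes of the same input level 3.43% were called higher and 1.96% lower, and among the 12455 of these that are protein coding 4.12% and 1.22%. At an unadjusted p under 0.05 in the limma fit, 97 of the 204 members were higher and 12 lower. At that threshold 3474 of all 22180 genes were higher and 1800 lower, and 1385 and 1029 of the 15410 other genes of the same input level. At the adjusted threshold the members' share of higher calls was above all of these shares, which are not matched by level. The other genes had a median input mean of 4.03 (4.16 for the protein coding ones), against 5.43 for the members. Their share of calls rose with level. Between 6 and 6.5 the share called higher was 38.3% of members and 13.5% of other protein coding genes. Zfp genes at or above the threshold had a similar share, with 52 of 158 called higher (32.9%) and 3 lower (1.90%).

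The shift was seen over most members and not in the called ones alone, but it was mainly at input levels from 4.5 upwards. The median difference of the members was 0.43, with quartiles of 0.04 and 0.82, against a median of -0.00 for the other genes of the same input level and 0.03 for all genes. A difference above 0 was found in 156 members (76.5%), against 49.2% of the other genes of that level. These genes are not matched by level. Between 4.5 and 6.5 the members' median was 0.52, against 0.13 in other protein coding genes. Under 4.5 it was 0.10, against -0.04. Between 3.5 and 4 the members' median was -0.11, below that of the other protein coding genes (-0.02). The 138 members that were not called ran from -0.85 to 1.26, and 95 of them lay above 0. The median over the Zfp genes at or above the threshold was 0.34.

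Among the 61 members called higher, the differences ran from 0.52 to 2.50 with a median of 1.25 (2.39-fold). All 61 had 4ET-IP 2 and 3 above every IgG-IP array, and all 5 called lower had both below. On the same 5 arrays, 100 members (49.0%) were higher without overlap and 15 (7.35%) lower, against 23.0% and 15.1% of all genes. The number of calls leaned on 4ET-IP 2 and 3. Without 4ET-IP 2, 37 members were called higher, against 2.99% of all genes, and without 4ET-IP 3 again 37, against 3.08%. The lower calls numbered 2 without 4ET-IP 2 and 1 without 4ET-IP 3, where 1.2% and 1.13% of all genes were called lower, and 8 without IgG-IP 3, where 2.39% of all genes were called lower and 55 members higher, against 5.87% of all genes. In every fit that left out 1 array, 27 of the 61 higher calls held, and of the lower ones only Zfp692 did. The fits without 4ET-IP 1 and without input 1 are the same as a fit of the 8 arrays on the higher scale. The scale term then takes up the other array of the lower scale, so losses in these fits are not separate. With group as the only term, 12 members were called higher and 0 lower, against 0.708% and 0.64% of all genes. With arrays centred on their medians, 85 were called higher and 2 lower, against 12.8% and 0.992% of all genes.

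Markers of cell types moved between the same arrays. Of 5 measured cortex precursor markers 4 were called higher with 4ET-IP (Sox2, Emx2, Hes5 and Nes), and their list median lay between 8.99 and 9.86 on the 4ET-IP arrays, 8.02 and 8.24 on the IgG-IP arrays and 7.89 and 8.0 on the input arrays. Of 6 genes listed for cortical neurons, of which Neurog2 and Eomes are also expressed in precursors, Neurod1 and Neurog2 were called higher and Dcx lower, while Tubb3 and Tbr1 were not called. The list medians were 9.01 to 9.36 on 4ET-IP, 9.38 to 9.41 on IgG-IP and 8.48 to 9.32 on input arrays. Kdr was the 1 of 6 endothelial markers called higher (list medians 4.36 to 5.33 on 4ET-IP, 4.22 to 4.76 on IgG-IP and 4.33 to 4.98 on input arrays). Foxc1 was the 1 of 6 meningeal markers called higher (3.41 to 4.85 on 4ET-IP, 4.51 to 5.02 on IgG-IP and 3.29 to 4.98 on input arrays). The 2 erythroid and 6 microglial markers had 0 calls in the limma fit. The erythroid medians were 9.17 to 9.57 on 4ET-IP, 8.80 to 9.26 on IgG-IP and 9.57 to 9.99 on input arrays, and the microglial ones 4.17 to 4.81 on 4ET-IP, 4.81 to 5.27 on IgG-IP and 4.43 to 5.29 on input arrays. The part of these in the zinc finger result was not tested. A marker higher with 4ET-IP can reflect more of its RNA coming down with 4E-T. In such bulk samples this, more cells of a type and more RNA per cell cannot be told apart.

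Zfp759, a gene of a tandem array on chromosome 13, had the highest difference of all members. Its values were 6.29, 6.65 and 7.22 on 4ET-IP 1, 2 and 3, against 4.21, 4.74 and 4.08 on IgG-IP 2, 3 and 4 and 4.86, 4.88, 4.63 and 5.5 on input 1 to 4. Every 4ET-IP array lay above every other array, and the difference to IgG-IP was 2.50 ± 0.27 (SE), or 5.66-fold, with an adjusted p of 0.000287. Zfp273 of the same array of genes had 6.42, 7.05 and 6.89 with 4ET-IP, against 4.73, 4.67 and 5.06 with IgG-IP and 4.98, 5.80, 5.23 and 5.44 in input. It was higher by 2.14 ± 0.18 (adjusted p 0.000102), again with no overlap. Zfp708, also of that array and known in mouse to bind a retrotransposon, had 7.04, 6.71 and 7.57 with 4ET-IP, against 5.59, 4.43 and 4.93 with IgG-IP and 5.94, 5.63, 5.73 and 6.07 in input. Here the input arrays lay between the precipitates, and the difference was 2.12 ± 0.30 (adjusted p 0.00141). Zfp459, another gene of the array, had 5.48, 5.94 and 6.11 with 4ET-IP, against 4.51, 3.91 and 3.99 with IgG-IP and 3.96, 4.35, 4.37 and 3.95 in input. Its 4ET-IP arrays lay above all others (1.84 ± 0.20, adjusted p 0.000287).

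Zfp472 and Zfp870 lie in an array of Zfp genes on chromosome 17. Zfp472 had 7.43, 8.10 and 8.08 with 4ET-IP, against 6.35, 5.68 and 5.60 with IgG-IP and 4.96, 6.02, 6.11 and 5.82 in input. Zfp870 had 8.03, 8.18 and 8.18 with 4ET-IP, against 6.74, 5.97 and 5.97 with IgG-IP and 5.61, 6.39, 6.30 and 6.46 in input. In both, every 4ET-IP array lay above every other array, and IgG-IP overlapped input. The differences were 2.28 ± 0.21 (adjusted p 0.000146) and 2.06 ± 0.23 (adjusted p 0.000319). In another array of genes on chromosome 17, Zfp51 had 6.38, 6.95 and 7.71 with 4ET-IP, against 4.07, 5.05 and 5.63 with IgG-IP and 4.78, 5.41, 4.58 and 6.32 in input. IgG-IP and input spread widely for this gene, and its difference of 2.36 ± 0.46 (adjusted p 0.00768) was not called without 4ET-IP 3 (0.0622) or with group as the only term (0.0610). Zfp820, of the same array as Zfp51, had 4.35, 5.21 and 5.31 with 4ET-IP, against 3.30, 3.25 and 2.73 with IgG-IP and 3.56, 4.25, 3.38 and 4.21 in input. Its 4ET-IP arrays lay above all others, and it was higher by 2.08 ± 0.26 (adjusted p 0.000626).

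The remaining members among the 12 highest lie on chromosomes 7 and 18. Zfp850 had 6.65, 7.37 and 7.13 with 4ET-IP, against 4.42, 5.17 and 6.25 with IgG-IP and 4.80, 5.95, 5.59 and 5.52 in input. Its difference of 2.02 ± 0.37 (adjusted p 0.00538) was not called with group as the only term (0.0613). Zfp975 had 7.08, 7.65 and 8.01 with 4ET-IP, against 5.19, 6.51 and 6.56 with IgG-IP and 5.15, 6.03, 5.79 and 5.99 in input. It rose by 1.75 ± 0.31 (adjusted p 0.00519; 0.0852 with group as the only term). Zfp438 had 5.5, 5.87 and 5.83 with 4ET-IP, against 3.89, 4.72 and 3.77 with IgG-IP and 4.57, 4.94, 4.53 and 4.78 in input, a rise of 1.70 ± 0.24 (adjusted p 0.00126). For Zfp850, Zfp975 and Zfp438 all 4ET-IP arrays lay above all others. Zfp108 had 5.61, 6.15 and 5.49 with 4ET-IP, against 4.03, 4.49 and 4.62 with IgG-IP and 2.87, 3.66, 5.32 and 4.58 in input. Its input arrays were far apart, and the difference of 1.70 ± 0.42 (adjusted p 0.0243) was not called without 4ET-IP 1, 4ET-IP 2, IgG-IP 2 or input 1 (0.0581 to 0.109), nor with group as the only term (0.232).

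The 5 members called lower with 4ET-IP were Zfp457, Zfp932, Zfp972, Zfp692 and Zfp979. Zfp692, known in human as AREBP, had 5.26, 5.40 and 5.41 with 4ET-IP, against 6.22, 6.33 and 6.29 with IgG-IP and 5.82, 6.14, 6.08 and 5.68 in input. The 3 groups did not overlap, with 4ET-IP below input and IgG-IP above it. The difference was -0.88 ± 0.16 (adjusted p 0.00487), which held in every fit without 1 array but not with group as the only term (0.0539) or with arrays centred on their medians (0.227). Zfp457 had 2.56, 3.36 and 2.19 with 4ET-IP, against 4.77, 3.84 and 4.27 with IgG-IP and 1.71, 3.07, 2.51 and 2.63 in input. Its IgG-IP arrays were the high ones, and 4ET-IP overlapped input (-1.37 ± 0.33, adjusted p 0.0228, not called without 4ET-IP 3 or IgG-IP 2, 0.0615 to 0.137, or with group as the only term, 0.0670).

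Of the other lower calls, that of Zfp932 was lost in the most fits. Zfp932, which in mouse embryonic stem cells is known to silence endogenous retroviruses, had 3.18, 4.34 and 3.78 with 4ET-IP, against 5.42, 4.47 and 5.53 with IgG-IP and 4.01, 5.14, 4.67 and 4.78 in input. Its 4ET-IP arrays lay below every IgG-IP array and below the input arrays of the same scale. On the lower scale 4ET-IP 1 was at 3.18 and input 1 at 4.01. The only overlap with input was across scales, where input 1 lay below 4ET-IP 2. The difference of -1.09 ± 0.28 (adjusted p 0.0278) was not called without 4ET-IP 1, 4ET-IP 2, 4ET-IP 3, IgG-IP 2, IgG-IP 4 or input 1 (0.0522 to 0.170), nor with group as the only term (0.103). Zfp972 had 2.77, 2.84 and 2.52 with 4ET-IP, against 3.36, 4.09 and 3.39 with IgG-IP and 3.51, 3.61, 3.67 and 3.62 in input. Here 4ET-IP was below both other groups (-0.90 ± 0.21, adjusted p 0.0169, not called without 4ET-IP 2 or 4ET-IP 3, 0.0541 to 0.115, with group only, 0.0969, or with median centring, 0.332). Zfp979 had 4.04, 4.16 and 4.18 with 4ET-IP, against 5.09, 4.99 and 4.64 with IgG-IP and 3.69, 4.09, 4.01 and 4.03 in input, and IgG-IP was the high group (-0.70 ± 0.16, adjusted p 0.0155). This call was lost without 4ET-IP 2 or 4ET-IP 3 (0.0856 to 0.0902), with group only (0.111) and with median centring (0.381), and with its 3 probe sets averaged the difference was 0.18 (adjusted p 0.499). The pseudogene Zfp389, whose difference lay between those of Zfp692 and Zfp979, was at -0.85 ± 0.28 (adjusted p 0.0774), and of the fits without 1 array it was called only in that without IgG-IP 4 (0.00558).

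**Figure D2:**
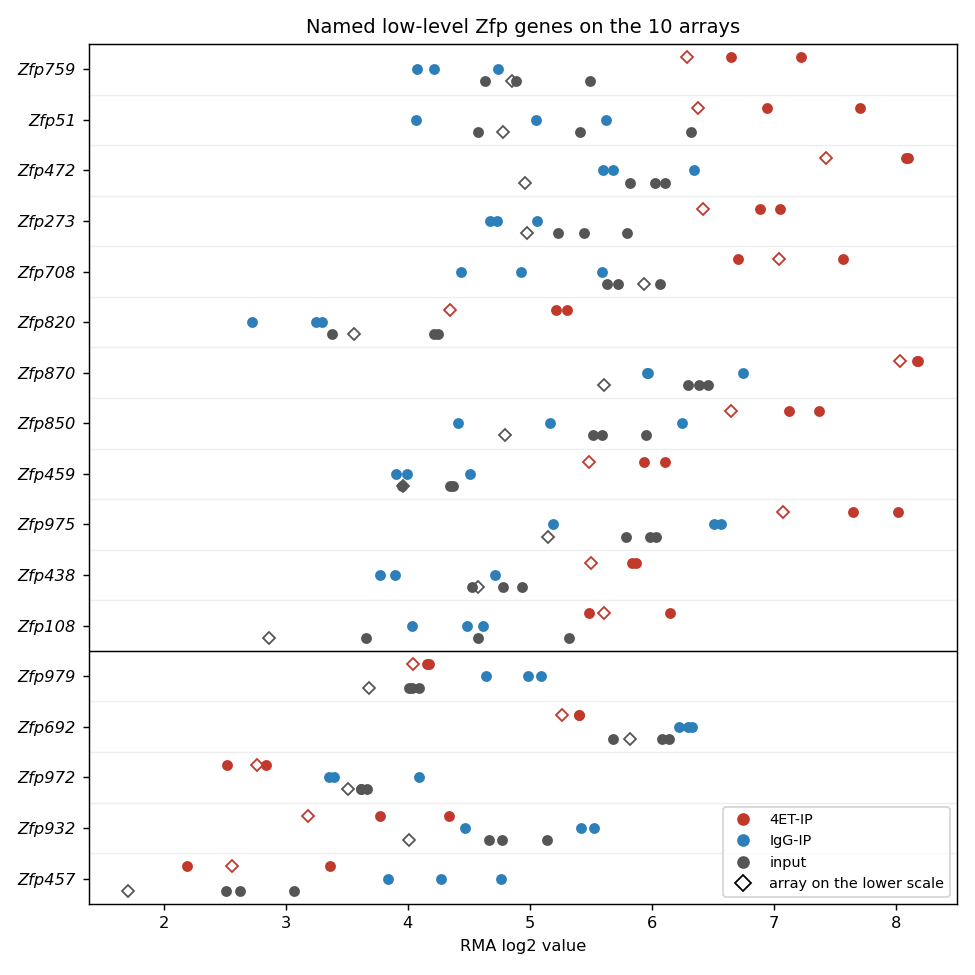
RMA log2 value of the named low-level Zfp genes on each of the 10 arrays (horizontal axis), 1 row per gene, coloured by group, with open diamonds for the arrays on the lower scale. For Zfp759, Zfp472, Zfp273 and Zfp870 all 4ET-IP points lie right of all other points, and for Zfp692 they lie left of them.

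Of the 3 members just under the threshold, Zfp58 was called higher at 0.61 ± 0.14 (adjusted p 0.0193), but not without 4ET-IP 2 or 4ET-IP 3 (0.0554 to 0.0860) or with group as the only term (0.427). Zfp974 was at 0.40 ± 0.18 (adjusted p 0.197) and Zfp14 at 0.29 ± 0.17 (adjusted p 0.362). Just above it, Zfp866 was at 0.70 ± 0.18 (adjusted p 0.0294), Zfp773 at 0.97 ± 0.18 (adjusted p 0.00637) and Zfp606 at -0.49 ± 0.16 (adjusted p 0.0834). Zfp genes on both sides of the threshold thus held called and uncalled genes.

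The share of members called higher was greater at the upper end of their input range. Between 4.5 and 6.5 it was 55 of 154 members (35.7%), against 437 of 5046 other protein coding genes (8.66%). Under 4.5 it was 6 of 50 members (12%), against 76 of 7409 (1.03%). In steps of 0.5 from 3 upwards, the members' share was 11.1%, 14.3%, 18.8%, 38.1%, 25%, 41.3% and 38.3%, and that of the other protein coding genes 0.718%, 1.16%, 2.42%, 4.61%, 6.34%, 10.6% and 13.5%. Under 3, 0 of 11 members were called higher in the limma fit, against 0.154% of the others. The members' share lay above that of the other genes in each step from 3, though 3 of these steps held under 20 members. Across members, the Pearson correlation of the difference with the input level was 0.25 (n = 204 genes, which share the arrays and are not independent).

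**Figure D3:**
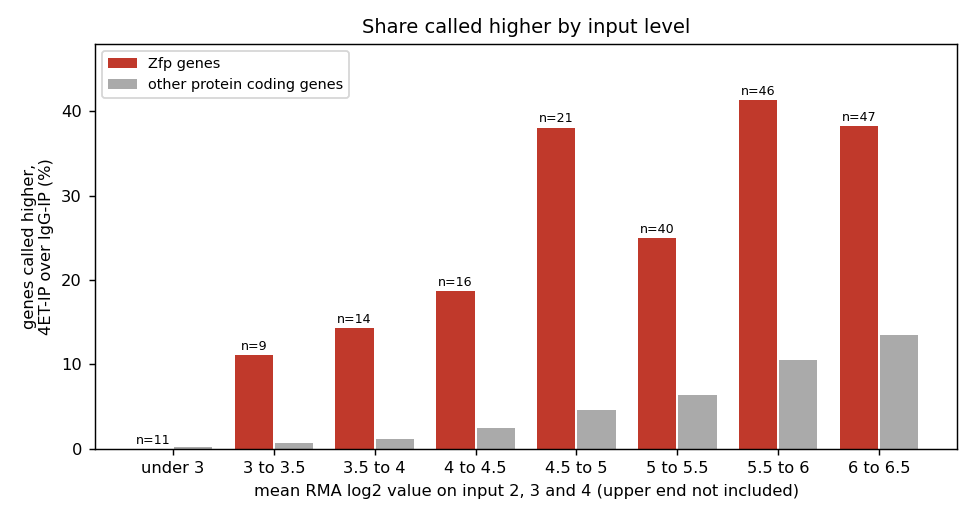
Share of genes called higher with 4ET-IP than with IgG-IP (percent, vertical axis) by input level in steps of 0.5 (horizontal axis), for low-level Zfp genes (red bars) and other protein coding genes (grey bars). The Zfp bar is above the grey bar in every step from 3 to 6.5, with 38.3% against 13.5% in the uppermost step.

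**Figure D4:**
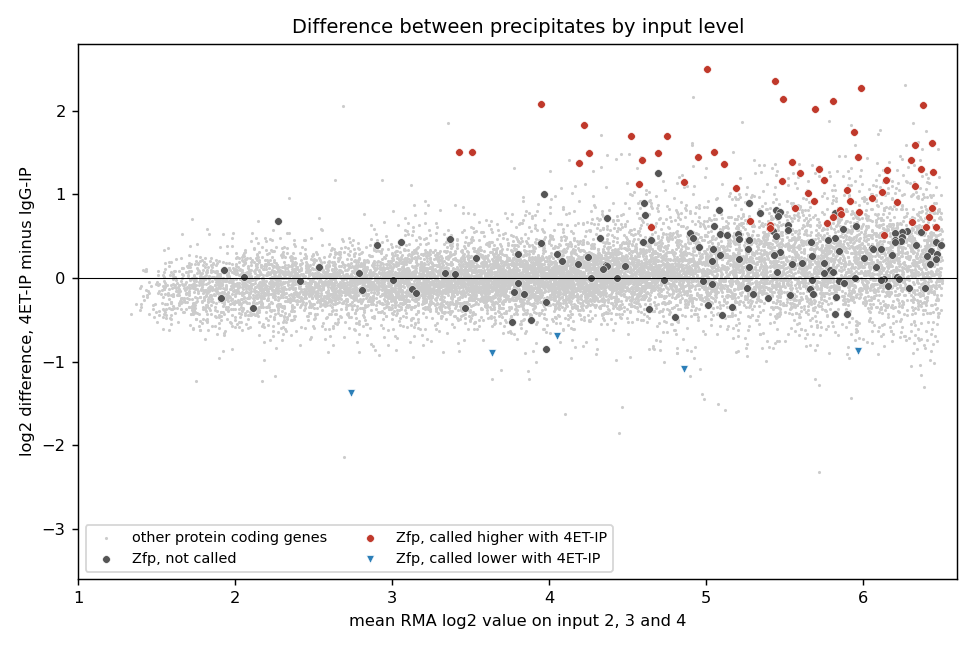
Log2 difference of 4ET-IP minus IgG-IP (vertical axis) against the mean RMA log2 value on input 2, 3 and 4 (horizontal axis); coloured points are low-level Zfp genes by call and grey points are other protein coding genes. The members called higher lie between 0.52 and 2.50, and the members called lower between -1.37 and -0.70.

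Set against input, the members were higher in the 4E-T precipitate and near their input level in the IgG precipitate. These values are a description, since input arrays chose the members and are shared by both differences. The members called higher were also picked on the same 4ET-IP and IgG-IP values, which largely fixes the counts given for them below. The median of 4ET-IP minus input was 0.47, with 166 of 204 members above 0 (81.4%), against a median of 0.04 in the other genes of the same level. The median of IgG-IP minus input was 0.03, with 110 members above 0 (53.9%), against 0.05 in the others. All 61 members called higher against IgG-IP were also above input with 4ET-IP, by 0.33 to 2.22. Of these, 36 were below input with IgG-IP and 25 above it, with a median of -0.05. Zfp457 had the highest IgG-IP minus input value of all members, at 1.65.

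The pair of arrays on the lower scale gave a further view, since input 1 took no part in the threshold and no IgG-IP array is in the pair. The difference of 4ET-IP 1 minus input 1 is a single difference without replicates. Its median over the members was 0.46, with 159 above 0 (77.9%), against 0.00 and 49.8% in the other genes of the same level. In a fit of the other 8 arrays, 50 members were called higher and 4 lower, against 6.29% and 2.33% of all genes. All 50 were above 0 in the pair of 4ET-IP 1 and input 1, with a median of 1.15. The 150 members not called in that fit had a median of 0.26 in the pair, with 107 above 0, and of the 4 called lower 2 were above 0. Across the 204 members, the differences from the 8 arrays and from the pair, which have no array in common, correlated at a Pearson r of 0.67, given as a description.

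Neighbouring members are many, and the difference ran higher in most neighbour groups. With starts within 500 kb of the next member and at least 5 members, 12 groups held 92 members, of which 40 were called higher (43.5%) and 2 lower. Of the other 112 members 21 were called higher (18.8%) and 3 lower. Among all genes 7.57% were called higher and 2.92% lower. The median difference was 0.61 in the groups and 0.24 outside them. Related neighbours can share probe sequence, which was not analysed here, so members of a group are not independent of each other.

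The largest group, at chr13:67038594-67827000, held 17 members with 8 called higher and 1 lower, and ran from Zfp759 at 2.50 to Zfp457 at -1.37 with a median of 0.68. On chromosome 17 the group at chr17:21383707-22393909 had 7 of 12 called higher (median 1.22, highest Zfp51, lowest Zfp983 at -0.11). The group at chr17:32879221-33255168 had 4 of 5 called higher (median 1.38, from Zfp472 down to Zfp952 at 0.46). Chromosome 17 as a whole had 13 of 23 members called higher (56.5%), against 29.9% of all members and 7.57% of all genes. Chromosome 13 had 8 of 24 (33.3%) and chromosome 7 had 20 of 56 (35.7%), near the share of all members. The share was 41.7% on chromosome 6 and 40% on chromosome 8. On chromosomes 2, 4 and 11 it was 7.69%, 9.09% and 7.69%. On chromosome 6, chr6:47815536-48086986 had 5 of 8 called higher (median 0.69, highest Zfp786 at 1.36, which was not called without 4ET-IP 2 or with group as the only term, lowest Zfp783 at -0.13). It includes Zfp746, whose protein PARIS is a substrate of the ubiquitin ligase parkin and which was named after its value was seen. Zfp746 was higher by 0.91 ± 0.17 (adjusted p 0.00693, not called without 4ET-IP 2, 0.0517, or with group as the only term, 0.266).

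Chromosome 7 held 7 of the groups. The group at chr7:42609514-43618279 had 4 of 6 called higher (median 1.29, highest Zfp975, lowest Zfp936 at -0.35). The group at chr7:29783968-30072823 had 4 of 9 (median 0.52, from Zfp940 at 1.03 to Zfp14 at 0.29). Its member Zfp568, known in mouse for repressing a placental promoter of Igf2 and also named after its value was seen, was at 0.45 ± 0.22 (adjusted p 0.243). The group at chr7:127342795-127885996 had 3 of 6 (median 0.62, from Zfp747 at 1.09, not called without 4ET-IP 2 or with group as the only term, to Zfp629 at 0.05). The groups at chr7:24112320-25083492 and chr7:27674661-28014210 had 2 of 9 (median 0.43, Zfp108 to Zfp112 at -0.44) and 2 of 5 (median 0.50, Zfp850 to Zfp607b at 0.18). At chr7:12412549-12985717, Zfp128 was the 1 of 5 called higher (1.62 ± 0.17, adjusted p 0.000270, median 0.74, lowest Zfp324 at 0.24). At chr7:6172468-6396637 0 of 5 were called in the limma fit (median 0.43, Zfp28 at 0.75 to Zfp444 at -0.23). The group at chr4:147443114-147812229 had a median below 0 (-0.19), with 0 of 5 called higher and Zfp979 called lower, while its member Zfp984 was at 1.00 (adjusted p 0.136). Coordinates are those of GRCm38.p6.

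**Figure D5:**
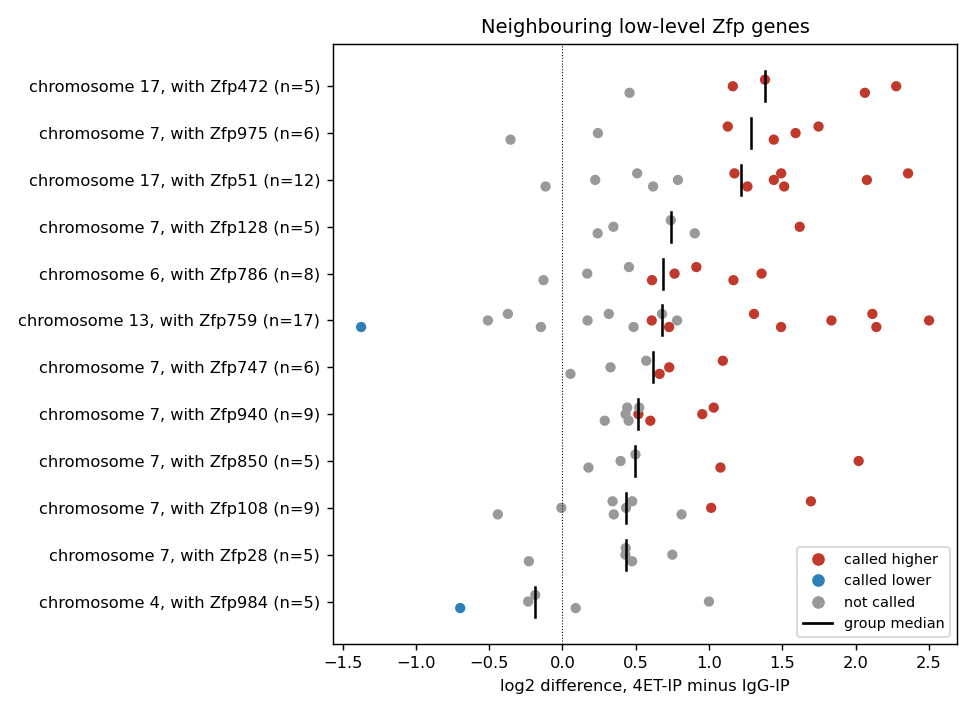
Log2 difference of 4ET-IP minus IgG-IP (horizontal axis) for each member of the 12 neighbour groups (rows), with red points for genes called higher, blue for called lower, grey for not called and a black bar at the group median. The medians run from -0.19 on chromosome 4 to 1.38 in the smaller group on chromosome 17.

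Members of the chromosome 13 group called in opposite directions between 4ET-IP and IgG-IP had closely related promoters. For Zfp457 the IgG-IP arrays were the high ones, and 4ET-IP overlapped input, so it did not fall below input with 4E-T. Its call was lost without 4ET-IP 3 or IgG-IP 2. Each window runs from 250 bases before to 50 bases after an annotated start of the gene, on its strand, from RefSeq (GRCm38.p6). There were 32851 windows for the 27025 genes with a window, so some genes have several. The windows shown for Zfp759 and Zfp708 lie inside the annotated spans of these genes. How the start was picked is not given here. Zfp759, called higher, lies on the plus strand at chr13:67127978-67128277, and Zfp457, called lower in the fit of all arrays, on the minus strand at chr13:67306363-67306662. They are shown because they are 90.8% identical over 273 aligned bases while the genes have the highest and the lowest difference of all members. The window of Zfp457 was less like those of Zfp273 (76.7%) and Zfp708 (71.7%), which were also called higher. Capitals mark the motif TGGGANNTGTAGT. It is the 13 bases that end 40 bases before the start used for Zfp759, with its bases 6 and 7 left free. Its reverse complement, ACTACANNTCCCA, matches an element that ZNF143 is known to bind in human.
Zfp759: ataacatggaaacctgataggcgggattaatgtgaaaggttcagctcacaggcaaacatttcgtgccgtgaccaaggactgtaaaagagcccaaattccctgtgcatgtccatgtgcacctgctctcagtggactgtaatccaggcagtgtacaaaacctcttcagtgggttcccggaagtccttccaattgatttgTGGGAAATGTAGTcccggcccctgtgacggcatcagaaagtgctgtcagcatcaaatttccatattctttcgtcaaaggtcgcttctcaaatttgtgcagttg
Zfp457: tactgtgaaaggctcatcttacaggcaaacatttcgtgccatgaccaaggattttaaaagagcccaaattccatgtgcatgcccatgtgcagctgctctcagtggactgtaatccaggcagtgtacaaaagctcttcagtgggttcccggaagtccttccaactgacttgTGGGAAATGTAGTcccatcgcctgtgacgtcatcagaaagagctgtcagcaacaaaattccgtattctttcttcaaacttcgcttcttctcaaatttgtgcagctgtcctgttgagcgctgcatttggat

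Zfp273, on the plus strand at chr13:67813566-67813865, and Zfp708, on the minus strand at chr13:67081496-67081795, are shown as a second related pair, of genes both called higher. Their windows are 87.6% identical over 267 aligned bases, and identity between the pairs was 69.3% to 76.7%.
Zfp273: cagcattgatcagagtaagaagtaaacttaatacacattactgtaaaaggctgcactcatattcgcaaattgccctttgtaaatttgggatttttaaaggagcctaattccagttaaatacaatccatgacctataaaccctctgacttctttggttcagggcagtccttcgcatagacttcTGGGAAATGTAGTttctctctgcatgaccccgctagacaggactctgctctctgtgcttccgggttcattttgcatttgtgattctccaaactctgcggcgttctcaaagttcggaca
Zfp708: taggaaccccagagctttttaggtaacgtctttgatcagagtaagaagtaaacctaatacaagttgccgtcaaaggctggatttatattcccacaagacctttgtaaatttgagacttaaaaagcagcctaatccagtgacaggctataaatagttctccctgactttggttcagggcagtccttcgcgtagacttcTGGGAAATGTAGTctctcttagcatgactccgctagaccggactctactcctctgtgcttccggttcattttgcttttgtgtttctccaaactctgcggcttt

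The motif was chosen after these windows had been seen, and both strands were searched. Among genes with a window, it was present in 14 of 15 in the chromosome 13 group (93.3%), 32 of 171 members (18.7%) and 19 of 130 Zfp genes at or above the threshold (14.6%), against 458 of 27025 genes in all (1.69%). Among members it was in 11 of 52 called higher (21.2%), 1 of 5 called lower and 20 of 114 not called (17.5%). The median difference was 0.50 in members with it and 0.40 in members without it. A match is a description of these letters and does not show a binding site.

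The genes through which KRAB zinc fingers act had a median difference of 0.01, and their calls were about as frequent as among other genes of high input level. Of 26 listed corepressor genes 24 were measured, 22 of them at or above the threshold of 6.5. With 4ET-IP 4 were called higher (16.7%) and 2 lower (8.33%), against 16.2% and 5.27% of the 6408 genes without a Zfp symbol at or above that threshold, so the counts are no result about the list. Trim28, the corepressor that the KRAB domain binds, had 7.52, 7.67 and 7.74 with 4ET-IP, against 8.41, 8.24 and 8.09 with IgG-IP and 8.13, 8.27, 8.11 and 8.11 in input. Its 4ET-IP arrays lay below all others, and it fell by 0.57 on the log2 scale (SE 0.14, adjusted p 0.0275). Cbx5, the heterochromatin protein HP1 alpha, was lower at -0.60 ± 0.15 (adjusted p 0.0273). Uhrf1, a cofactor of maintenance DNA methylation, was higher at 1.11 ± 0.25 (adjusted p 0.0156), and so were Atf7ip, a partner of Setdb1, at 0.73 ± 0.15 (adjusted p 0.00932), the chromatin remodeller Smarcad1 at 0.57 ± 0.16 (adjusted p 0.0432) and the histone chaperone Daxx at 0.56 ± 0.15 (adjusted p 0.0337). Setdb1 was at -0.14 ± 0.16 (adjusted p 0.656). These calls depended on single arrays. In the limma fit 0 genes of the list were called without 4ET-IP 2 or with group as the only term, 1 without 4ET-IP 3, 3 without IgG-IP 2 and 3 without IgG-IP 3. The call of Trim28 was also lost without 4ET-IP 1 or input 1, that of Smarcad1 without IgG-IP 4, input 2 or input 3, and that of Daxx without 4ET-IP 1, IgG-IP 4 or any of input 1, 2 and 3.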

How the data were processed

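4ET-IP and IgG-IP RNA was precipitated with the Magna RIP kit and input was total RNA. RNA was extracted with phenol and chloroform, amplified with a NuGEN Pico kit and labelled with a WT Terminal Labeling kit, per the labels' protocols. The deposited values are log2 intensities that the authors made with RMA, and per the submitters' processing notes the program was Affymetrix Expression Console. Its version and the genome build are not given in the sources used here. How many arrays there are limits the precision, and the table has no detection calls. Nothing says that samples of a group come from separate litters, so p-values measure the spread between these samples.

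Of 41345 probe sets, 23521 had 1 gene symbol, 1814 several and 16010 no annotation entry. The single-symbol probe set with the highest mean over the 10 arrays stood for a gene (8 members had several), which gave 22180 genes, and 203 members matched the reference genes (GRCm38.p6). Models were fitted with lmFit and eBayes of limma 3.58.1 (R 4.3.3) over all 10 arrays with terms for group and for scale (arrays with a median under 4 or not), and Benjamini-Hochberg adjustment over all genes. Errors are standard errors of the fit. On simulated data for 4ET-IP over IgG-IP (22180 genes), 56.8% of genes changed by 1 and 97.8% of genes changed by 2 on the log2 scale were recovered. Figures were drawn with matplotlib 3.10.9.

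The members and lists were chosen with earlier results of these data known. Named were the 12 highest and up to 8 lowest called members without overlap on the 8 arrays of the higher scale, the 5 lowest differences, 3 genes on each side of the threshold, the ends of each neighbour group, and a short list given whatever its values. A part of the rule based on finger counts was not applied, as no protein table was used. The alternatives were fits with group only, with the 8 arrays, with a replicate block, without each array, with median centring, with a trended prior, without genes with low values, with probe sets averaged, and thresholds of 6 and 7.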

Additional observations from a re-analysis of the deposited data

How the results depend on the processing

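The median difference of the members over the other genes of the same input level was 0.44 and stayed between 0.38 and 0.45 without each array in turn, and at 0.50 with group only and with median centring. The median over the members relative to those genes, against input, stayed between 0.39 and 0.45 for 4ET-IP and between -0.04 and 0.02 for IgG-IP without each array.

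The counts moved more. Higher calls (61) ranged from 37 to 61 and lower calls (5) from 1 to 8 without each array, the calls among the 21 named genes (18) from 12 to 18, and the corepressor calls (6) from 0 to 6. With group only, 12 were higher and 0 lower, 8 named genes and 0 corepressor genes were called, and all 12 higher calls were among the 61. In that fit 52.5% of all calls were higher, against 72.1% with the scale term and 92.8% with median centring. Median centring gave 85 higher calls, all 61 included, and 2 lower, and moved the median of all genes to 0.25. Leaving out genes with a mean under 5 over all 10 arrays kept 10393 genes, with 133 members and 12 of the 21 named genes. There 62 members were called higher and 1 lower, and 10 named genes were called. The filter included the 4ET-IP arrays, so a member could pass through high 4ET-IP values. These counts are therefore a description only, and the share of all genes called in that fit is not given here. Of the 5 lower calls, Zfp457, Zfp932, Zfp972 and Zfp979 were removed by the filter and Zfp692 stayed. All 12 named genes left kept the result they had without the filter. What changed the number of higher calls was not tested. Averaging probe sets reversed Zfp979 (0.18). A threshold of 6 gave 43 higher calls among 157 members (27.4%, against 2.55% of other genes under 6), and a threshold of 7 gave 81 among 254 (31.9%, against 4.39% of other genes under 7).

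The precipitates share only numbers 2 and 3, and their values showed little sign of pairing by number. With so few shared numbers, this cannot tell whether the samples were prepared as pairs. Across genes the same-number deviations of 4ET-IP and IgG-IP correlated at -0.067 and 0.022 (0.015 and 0.031 within the 8 arrays). Those of 4ET-IP and input correlated at 0.62, 0.24 and 0.28, but at 0.044 and 0.0085 for numbers 2 and 3 within the 8 arrays, and those of IgG-IP and input at -0.023, 0.080 and 0.32 (0.14, 0.091 and 0.25 within the 8 arrays), so that not every pair passed 0.1. No test is given against input. With a replicate block, 66 members were called higher (57 of the 61 among them) and 5 lower, 18 named genes and 4 corepressor genes were called, and the median was 0.44. The share of all genes called in the fit with a replicate block is not given here.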

Other observations

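Other zinc finger families with an input mean under 6.5 held fewer genes. Among 7 Zkscan genes, which encode zinc fingers with a SCAN and often a KRAB domain, 4 were called higher with 4ET-IP than with IgG-IP (Zkscan4, Zkscan6, Zkscan14 and Zkscan16), with a median difference of 0.82. Of 13 Zscan genes, Zscan2 and Zscan20 were called higher and Zscan30 lower (median 0.19). Of 24 Zbtb genes, which pair zinc fingers with a BTB domain, Zbtb3 and Zbtb45 were called higher (median 0.15). Of 7 Zc3h genes, whose CCCH fingers typically bind RNA, Zc3h10 was called higher (median 0.18). Among all genes 7.57% were called higher and 2.92% lower, and among the other genes of the same input level 3.43% and 1.96%. The Zbtb share was near that of all genes, and the other lists are small, so the counts are a description. These families were chosen with earlier results known, and the differences between families were not tested.

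A further 44 probe sets carry a Zfp symbol together with other symbols. They were not tested as genes.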
